A study of Eriocheir sinensis with 6 samples.

Results

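Accessible regions inside long genes were examined in the inter-molt muscle of the Chinese mitten crab (Eriocheir sinensis). Peaks of the 3 ATAC-seq libraries were merged where they overlapped, and a region was kept when it held a peak in every library, lay on a placed sequence, stayed outside the 2 kb on either side of every transcription start site (TSS), and overlapped a gene spanning at least 50 kb. This gave 2301 regions, out of 18305 shared regions on placed sequences, 27373 shared regions in all and 85139 merged regions. They lay in 819 of the 1830 genes of that span (44.8%), which are called hosts below. The remaining 1011 long genes, the 2282 shared regions inside genes under 50 kb, the 8192 shared intergenic regions and the 5530 shared promoter regions served for comparison.

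All 6 libraries came from the muscle of healthy, untreated, wild-type juvenile crabs in the inter-molt stage, the period between molts. Muscle of each of 3 crabs was divided between RNA-seq and ATAC-seq, with 1 library per crab and assay, so that there was 1 group and no treatment or other stage to compare with. The libraries are numbered by crab as in the labels, and the peak names inside the third ATAC list carry another number than its label, so the match of crab 3 between assays rests on the label. The RNA libraries held 6772294 to 7920094 reads assigned to genes, and 49574 to 57320 peaks were called per ATAC library, of which 34405 to 43860 lay on placed sequences. The labelled tissue could not be checked against muscle markers, because the tables give no gene names and none of their identifiers is found in RefSeq's gene table (0 matched). For the same reason hosts are given by identifier, except for receptors whose identifiers the study names. No genome sequence was used here, so no sequence of a region is shown.

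In ATAC-seq the Tn5 transposase inserts adapters where DNA is not wrapped tightly around nucleosomes, and a peak marks a place with more insertions than its surroundings. Most of a long gene is intron, and accessible sites within introns are known in animals as enhancers, silencers, alternative start sites and binding sites of architectural proteins. In arthropod muscle the long genes include those of giant sarcomere proteins, among them projectin, and which of the hosts encode such proteins is not known here. The gene models of the hosts covered a median of 2.31% of their span. The strength of a peak is given as fold enrichment, the ratio of the fragment pileup at its summit to the local background that MACS2 derives from the windows around it, and expression as FPKM, the fragments assigned to a gene scaled to the length of its model and to the size of the library. The positions of single exons are not in the files, so exonic and intronic regions could not be separated.

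The regions were short and scattered. Their median width was 614 bases, with a range of 223 to 2523 bases. They lay on all 72 placed sequences, with 4 to 114 regions on each and a median of 27. Sequence CM024126.1 held the most, 114, followed by CM024113.1 with 81 and CM024097.1 with 72. Of the regions, 96 lay in more than 1 long gene and 60 also in a gene under 50 kb, which gave 2455 pairs of a region and a host.

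A minority of the long genes held most of the regions. No shared region was found in 1011 long genes, and 369 held 1, 149 held 2, 150 held 3 or 4, 120 held 5 to 9 and 31 held 10 or more. The 31 genes with 10 or more regions accounted for 444 regions (19.3%), and the 450 genes with 2 or more accounted for 1956 (85.0%). Hosts were found among gene models of the EVM annotation (647 of 1471, 44.0%) and among loci added by the authors (172 of 359, 47.9%).

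The gene with the most regions was an added locus on the minus strand at CM024126.1:603571-1267959. Added loci are given here by their position. It held 74 regions over 664 kb, from 26.2 to 662 kb downstream of its TSS, and their mean fold enrichment ran from 1.81 to 10.7. Its expression was low, at 0.742, 1.05 and 0.894 FPKM in crabs 1, 2 and 3, from 9, 17 and 6 reads. The next genes were also added loci, with expression on either side of the host medians of 1.88, 2.07 and 1.27 FPKM. The locus CM024113.1:7153423-7805563, with a span of 652 kb, held 44 regions with 2.76, 2.54 and 1.09 FPKM. The locus CM024114.1:1722716-2095618, with a span of 373 kb, held 31 regions with 0.359, 0.134 and 0.325 FPKM. The locus CM024113.1:7688016-7924536, with a span of 237 kb, held 29 regions with 2.12, 1.08 and 0.614 FPKM.

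Among the EVM models, evm.TU.CM024155.1.239 held the most, 23 regions over 612 kb. Its expression was 11.1, 6.95 and 8.42 FPKM, and no promoter peak was called for it in any library. The genes evm.TU.CM024161.1.253 and evm.TU.CM024156.1.572 held 17 regions each over 568 and 371 kb, with mean expression of 2.14 and 0.26 FPKM. A different picture was seen in evm.TU.CM024100.1.218_evm.TU.CM024100.1.220, a fused gene model on CM024100.1, where 14 regions lay within 112 kb. It was expressed at 100.2 and 75.4 FPKM in crabs 1 and 2 and at 6.95 FPKM in crab 3, from 12639, 12733 and 485 reads. The median local background of its 14 regions was 34.2 fragments in crab 1, 23.4 in crab 2 and 67.2 in crab 3. Over all regions the medians were 7.33, 6.13 and 8.21 fragments, in the same order of crabs. Backgrounds were not scaled between libraries, so they were not set against expression across crabs for this gene.

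**Figure D1:**
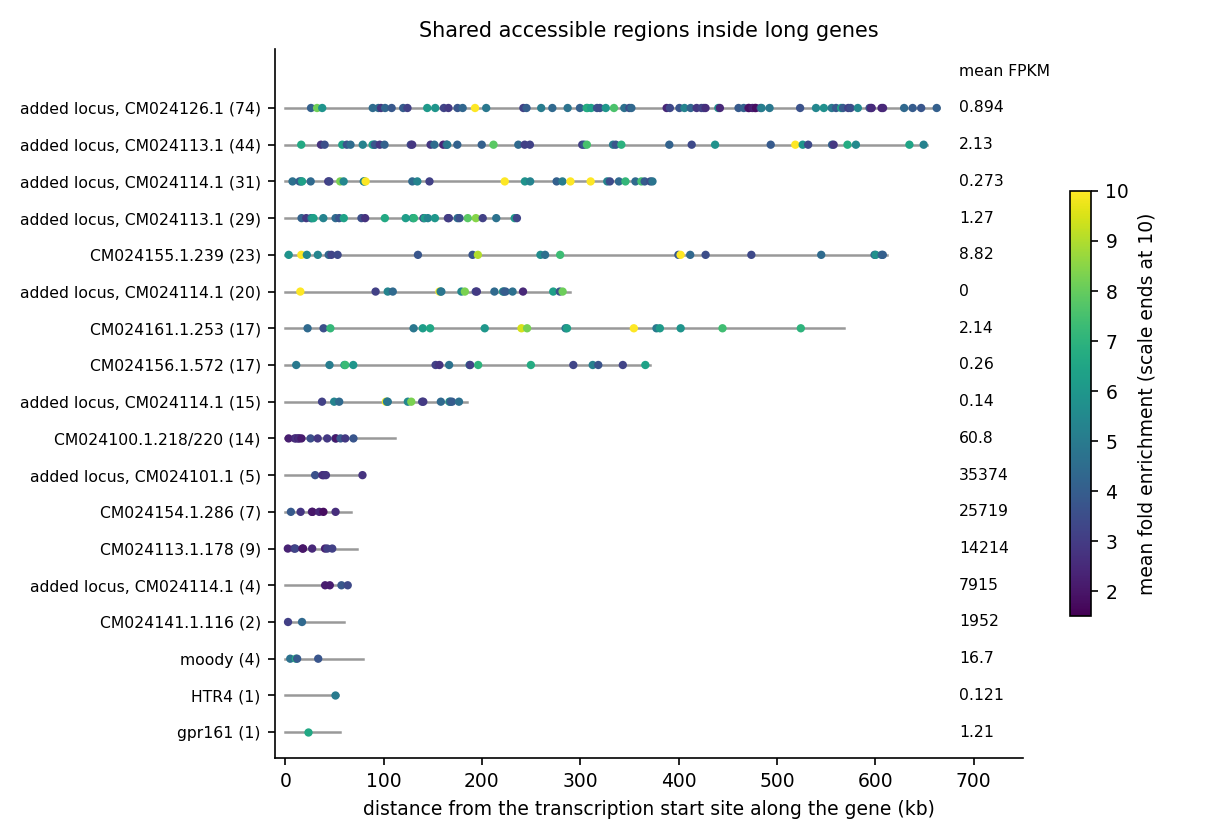
Positions of shared regions along 18 hosts: the 10 with most regions, the 5 of highest expression and 3 receptor genes (the prefix evm.TU. is left out of the names, and added loci are labelled by sequence, with the number of regions in brackets). Each grey line is a gene from its TSS to its end in kb, each point a region coloured by its mean fold enrichment over 3 crabs, and the number on the right is the mean FPKM. The 74 regions of the added locus on CM024126.1 run over 664 kb, while the 5 genes of highest expression hold 2 to 9 regions.

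Some of these counts belong to the same stretch of sequence. The added loci CM024114.1:1712832-1762872 (50.0 kb, plus strand) and CM024114.1:1712832-1762938 (50.1 kb, minus strand) overlapped and shared the same 8 regions, which made them the hosts with most regions per length among those of at least 5 regions. Regions were also shared between the locus of 31 regions on CM024114.1 and the added loci CM024114.1:1857081-2146924 (20 regions) and CM024114.1:1911540-2095942 (15 regions). The loci of 44 and 29 regions on CM024113.1 likewise shared regions with each other and with the added locus CM024113.1:7696076-7772345 (11 regions). Genes under 50 kb also lay wholly inside some hosts. There were 13 in the locus of 44 regions and 1 in the locus of 74. The loci of 31 and 29 regions and evm.TU.CM024155.1.239 held 5 each. The expression given for a host is not that of the genes inside it, and which gene a region belongs to was not tested. Among hosts, 617 overlapped no other gene. The densest of these among the named hosts was the added locus CM024137.1:23190570-23251821, with 9 regions in 61.3 kb and 0, 1 and 1 reads.

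Longer genes more often held a region, but span and number were only loosely related. The share of genes with a shared region outside promoters was 28.2% for spans of 25 to 50 kb, 39.1% for 50 to 75 kb, 49.9% for 100 to 150 kb and 76.1% above 300 kb. Over the 1830 long genes the Spearman rho between span and number of regions was 0.167, and genes are not independent replicates. The longest gene, the added locus CM024118.1:17563613-18759272, spanned 1196 kb and held 3 regions. Conversely, evm.TU.CM024156.1.180 spanned 699 kb and the added locus CM024120.1:8809708-9397749 588 kb without a shared region, although the latter had a promoter peak in all 3 libraries.

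The limit of 50 kb did not fall at a break. Genes of 50 to 55 kb held a region in 34.0% of cases (85 of 250), and genes of 45 to 50 kb in 40.4% (110 of 272). The hosts just inside the limit were evm.TU.CM024138.1.100 (50004 bases, 4 regions), evm.TU.CM024121.1.370 (50036 bases, 4 regions) and the added locus CM024114.1:1712832-1762872 (50041 bases, 8 regions). Just outside it were evm.TU.CM024164.1.18 (49852 bases, 1 region), evm.TU.CM024149.1.27 (49837 bases, 5 regions) and the added locus CM024120.1:18395668-18445329 (49662 bases, 2 regions).

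The regions were spread over the whole gene. Their median distance from the TSS was 47.1 kb, with quartiles at 24.0 and 88.0 kb and a range from 2.43 to 662 kb, and 47.3% of the pairs lay beyond 50 kb. By relative position, 35.3% fell in the first of 3 equal parts of the gene, 34.7% in the middle and 30.0% in the last. Of the pairs, 57 lay within 5 kb of the TSS and 36 within 2 kb of the gene end. Neighbouring regions of the same gene were a median of 9.01 kb apart, and 503 of the 1636 gaps (30.7%) were under 5 kb.

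Peak density varied within a narrow range along the genes. In crab 1 it was 33.3 peaks per Mb at 2 to 10 kb, 37.8 at 10 to 20 kb, 37.0 at 20 to 50 kb, 31.4 at 50 to 100 kb and 30.2 beyond. In crab 2 it was 26.8, 28.3, 30.0, 25.6 and 24.9 peaks per Mb over the same distances, and in crab 3 it was 37.0, 39.6, 40.7, 35.1 and 32.9. The lowest density was found beyond 100 kb in every crab. The log2 ratio of the density within 20 kb to that beyond was 0.11, 0.03 and 0.07 in crabs 1, 2 and 3 (mean 0.07 ± 0.04, SD, n = 3, exact sign-flip permutation test over crabs, two-sided, p = 0.25). In genes of at least 100 kb the ratio was 0.01 and not of one direction in the crabs. With 3 crabs this test cannot give a p below 0.25, so no difference tested here can pass 0.05. It was run on 29 quantities, and adjustment for their number could only raise these p-values.

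**Figure D2:**
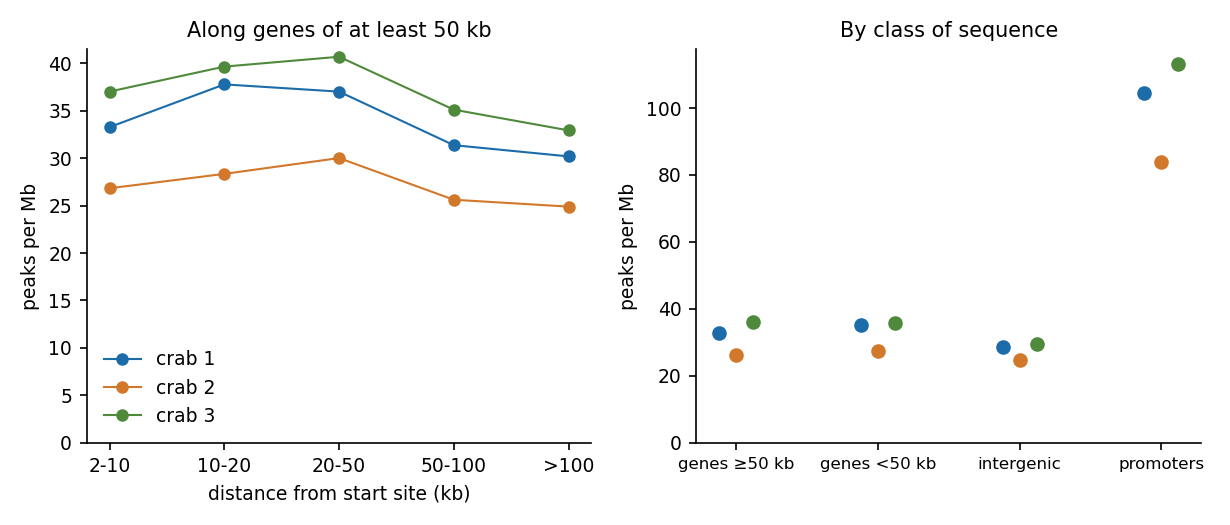
Peak density in peaks per Mb for each crab, along long genes by distance from the TSS in kb (left) and by class of sequence (right). Promoters lie far above the other classes in every crab, and genes of at least 50 kb overlap with genes under 50 kb.

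The density of peaks inside long genes did not differ from that inside shorter genes in one direction across the crabs. Outside promoters, long genes carried 32.7, 26.2 and 36.2 peaks per Mb in crabs 1, 2 and 3, and shorter genes carried 35.3, 27.4 and 35.8. The log2 ratio was -0.11, -0.06 and 0.02 (mean -0.05 ± 0.06, SD, n = 3, exact sign-flip permutation test, p = 0.5). Its direction depended on the setting. It was 0.05 with peaks of −log10 q of at least 5, 0.11 when genes of at least 30 kb were counted as long, and -0.15 when genes of at least 100 kb were, then lower in 3 of 3 crabs. Intergenic sequence carried 28.6, 24.7 and 29.6 peaks per Mb, which was lower than long genes in each crab, with a log2 ratio of long genes to intergenic sequence of 0.19 ± 0.10 (SD, n = 3, exact sign-flip permutation test, p = 0.25). Promoters carried 104.5, 83.7 and 113.1 peaks per Mb.

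Fewer of the peaks inside long genes were shared than of the peaks at promoters. Of 9654 merged regions inside long genes, 56.3% had a peak in 1 library, 19.8% in 2 and 23.8% in all 3, against 38.8% in all 3 for promoter regions, 25.9% for intergenic regions and 22.5% for regions in shorter genes. Counted per library, 42.6%, 54.9% and 37.9% of the peaks in long genes belonged to shared regions, which was 16.3 ± 2.69 percentage points less than for promoter peaks (SD, n = 3, lower in 3 of 3 crabs, exact sign-flip permutation test, p = 0.25). The difference from regions in shorter genes was 1.91 ± 1.74 percentage points and not of one direction in the 3 crabs (p = 0.5 by the same exact test).

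The strength of the regions lay close to that of the other shared regions. A region took the highest fold enrichment of its summits in each library. Its median over the 2301 regions was 4.12 in crab 1, 3.95 in crab 2 and 4.95 in crab 3. Regions in shorter genes had medians of 3.94, 3.83 and 4.82, intergenic regions 4.29, 4.14 and 4.90, and promoter regions 4.13, 3.83 and 5.27. On the log2 scale the regions exceeded those in shorter genes by 0.05 ± 0.01 (SD, n = 3, 3 of 3 crabs, exact sign-flip permutation test, p = 0.25). The differences of -0.04 ± 0.05 from intergenic regions and -0.02 ± 0.07 from promoter regions were within the spread between crabs (n = 3, p = 0.5 and 0.75 by the same exact test).

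**Figure D3:**
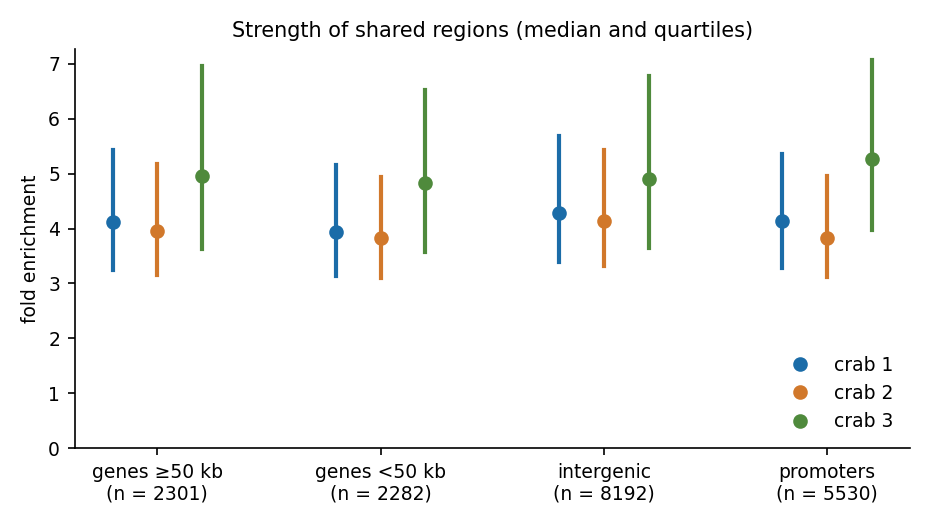
Fold enrichment of shared regions by class for each crab, with points at the median and lines from the lower to the upper quartile over regions. The regions in genes of at least 50 kb have medians of 4.12, 3.95 and 4.95, and the quartiles of all 4 classes overlap in each crab.

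The strongest region lay in a gene that was hardly expressed. Region CM024132.1:7799334-7799760, 34.2 kb inside evm.TU.CM024132.1.205, had fold enrichments of 33.4, 34.7 and 32.6, and its host had 3, 5 and 0 reads. The region CM024158.1:12682386-12683083 in an added locus of 51.5 kb, a gene without a read in any library, followed with 22.5, 21.8 and 20.0. The third, CM024100.1:9416623-9416962, lay 158 kb inside evm.TU.CM024100.1.178_evm.TU.CM024100.1.180 and had 14.0, 15.8 and 18.9, with host expression of 336, 212 and 122 FPKM. Among the 5 strongest regions, only this one had a host above 1 FPKM. In total, 50 regions had a mean fold enrichment of 10 or more.

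The 5 weakest regions lay in 3 hosts, and each stood over a local background above the median of all regions in every crab. Region CM024138.1:3557684-3558554 had fold enrichments of 1.68, 1.70 and 1.75, where pileups of 85, 59 and 87 fragments stood over backgrounds of 50.0, 34.3 and 49.3. Its host evm.TU.CM024138.1.100, expressed at 478, 407 and 472 FPKM, also held the region CM024138.1:3567246-3567761, with pileups of 138, 90 and 189 fragments over backgrounds of 74.0, 52.4 and 98.8. Of the other weakest regions, 1 lay in evm.TU.CM024154.1.286, one of the most highly expressed hosts, and 2 in the locus of 74 regions, with host expression near 1 FPKM. A low fold enrichment therefore did not mean a low number of fragments.

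Expression of the host went with the local background more than with fold enrichment. The 772 regions in hosts of at least 10 mean FPKM, taking the highest where a region had several hosts, had median backgrounds of 10.8, 8.38 and 13.7 fragments in crabs 1, 2 and 3. The 688 regions in hosts below 1 FPKM had 5.32, 4.66 and 4.68 fragments. On the log2 scale this was a difference of 1.02, 0.85 and 1.55 (mean 1.14 ± 0.36, SD, n = 3, 3 of 3 crabs, exact sign-flip permutation test, p = 0.25).

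The pileup at the summit differed in the same direction and by less. Its medians were 45, 34 and 73 fragments in hosts of at least 10 FPKM and 30, 26 and 29 fragments in hosts below 1 FPKM, a log2 difference of 0.77 ± 0.50 (SD, n = 3, 3 of 3 crabs, exact sign-flip permutation test, p = 0.25). Fold enrichment ran the other way, with medians of 3.74, 3.61 and 4.64 in the hosts of higher expression and 4.36, 4.28 and 4.71 in those below 1 FPKM, a log2 difference of -0.16 ± 0.12 (SD, n = 3, 3 of 3 crabs, same exact test, p = 0.25). The difference in fold enrichment was near 0 in crab 3, at -0.02, against -0.22 in crab 1 and -0.25 in crab 2. All regions had passed the peak call, in which a lower fold enrichment can pass over a higher background. Over a higher background a higher pileup is also needed to pass. The part of the peak call in the differences in pileup and in fold enrichment was not tested.

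Over the 2301 regions the Spearman rho between background and host FPKM was 0.443, 0.414 and 0.537 in crabs 1, 2 and 3, while that between fold enrichment and host FPKM was -0.19, -0.22 and -0.05. These are descriptions across regions, which share hosts and libraries. The background was also higher by 0.51 ± 0.03 on the log2 scale (SD, n = 3) for regions in genes of 10 or more regions than for those in genes of fewer, and the part of neighbouring peaks in the background was not tested. Among hosts with a single region the background differed by 0.69 ± 0.17 and the pileup by 0.31 ± 0.03 on the log2 scale between 43 regions in hosts of at least 10 FPKM and 183 in hosts below 1 FPKM (SD, n = 3, 3 of 3 crabs, exact sign-flip permutation test, p = 0.25 for each). The median background of these 183 regions was 3.94, 3.56 and 3.49 fragments. The lowest of each library was 3.94, 3.44 and 3.49, so the background difference was measured from near the floor. The part of the peak call in the pileup difference was not tested here either.

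**Figure D4:**
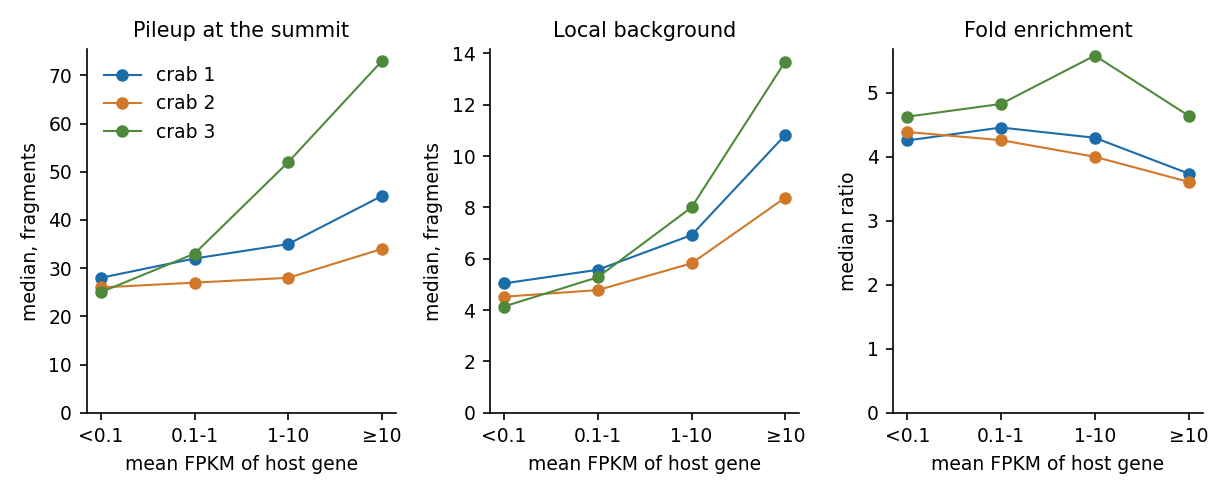
Median pileup at the summit and local background in fragments, and median fold enrichment, of the regions by the mean FPKM of their host, with 304, 384, 841 and 772 regions from left to right and a line for each crab. Pileup and background are highest in hosts of at least 10 FPKM in each crab, and fold enrichment in crabs 1 and 2 is lowest there.

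In the 5 hosts of highest expression, the regions had pileups and backgrounds with medians above those of all regions in each crab, and in the first 4 of them a fold enrichment with a median below the lower quartile. The added locus CM024101.1:9451358-9529814 was expressed at 28171, 21345 and 56605 FPKM and held 5 regions, with median backgrounds of 34.0, 20.2 and 73.8 fragments, median pileups of 77, 55 and 199 fragments and median fold enrichments of 2.59, 2.80 and 2.79. The gene evm.TU.CM024154.1.286, at CM024154.1:8892406-8959396, was expressed at 34800, 26488 and 15869 FPKM and held 7 regions, with median backgrounds of 49.7, 19.5 and 52.3 fragments and median fold enrichments of 2.16, 2.39 and 2.70. The gene evm.TU.CM024113.1.178, at CM024113.1:4887594-4960547, was expressed at 15476, 12509 and 14657 FPKM and held 9 regions, with median backgrounds of 40.3, 15.0 and 41.7 fragments. No promoter peak was called for it in any library, although 9 regions lay between 2.65 and 47.8 kb downstream of its TSS.

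The remaining 2 of these hosts were the added locus CM024114.1:4830710-4895702, with 4 regions, and evm.TU.CM024141.1.116, on CM024141.1 with 2. In the former, expression was 4193, 2397 and 17156 FPKM, the median background was 42.5, 25.6 and 29.9 fragments, and the median fold enrichments were 2.38, 2.64 and 3.01. In evm.TU.CM024141.1.116 expression was 1610, 1075 and 3171 FPKM and the median background was 19.2, 11.5 and 24.0 fragments, and its median fold enrichments were 3.43, 3.22 and 4.58, within the quartiles of all the regions. The order of the crabs in expression depended on the library scaling. On plain read totals evm.TU.CM024141.1.116 had 1671, 1370 and 1556 FPKM, and the added locus CM024101.1:9451358-9529814 had 29242, 27198 and 27786. No relation between expression and background across crabs was therefore drawn for single hosts.

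Hosts were expressed at higher levels than long genes without a shared region. Median expression was 1.88, 2.07 and 1.27 FPKM in hosts and 0.329, 0.358 and 0.27 FPKM in the other long genes, in crabs 1, 2 and 3. The difference of the medians on the log2(FPKM + 1) scale, which understates the change of low genes, was 1.12, 1.18 and 0.84 (mean 1.04 ± 0.18, SD, n = 3, 3 of 3 crabs, exact sign-flip permutation test, p = 0.25). In bulk tissue, fewer cells of a type and less RNA per cell cannot be told apart. An FPKM of at least 1 in all 3 libraries was reached by 408 hosts (49.8%) and by 252 of the other long genes (24.9%), against 32.7% of all 28671 genes and 36.1% of all long genes. No read was found in any library for 120 hosts (14.7%) and for 247 of the others (24.4%), against 29.2% of all genes.

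The difference grew with the number of regions up to 9. The median of mean FPKM was 0.417 in long genes without a region, 0.788 with 1, 2.28 with 2, 4.74 with 3 or 4, 8.16 with 5 to 9 and 2.48 with 10 or more. An FPKM of at least 1 in all 3 libraries was reached by 34.7% of genes with 1 region, 51.7% with 2, 67.3% with 3 or 4, 70.0% with 5 to 9 and 58.1% of the 31 genes with 10 or more. Genes with 1 region exceeded genes without one by 0.35 ± 0.07, and genes with 2 or more exceeded genes with 1 by 1.51 ± 0.19, on the log2(FPKM + 1) scale (SD, n = 3, 3 of 3 crabs, exact sign-flip permutation test, p = 0.25 for each). Over the 1830 long genes the Spearman rho between number of regions and mean FPKM was 0.317, and that between span and mean FPKM was 0.04.

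**Figure D5:**
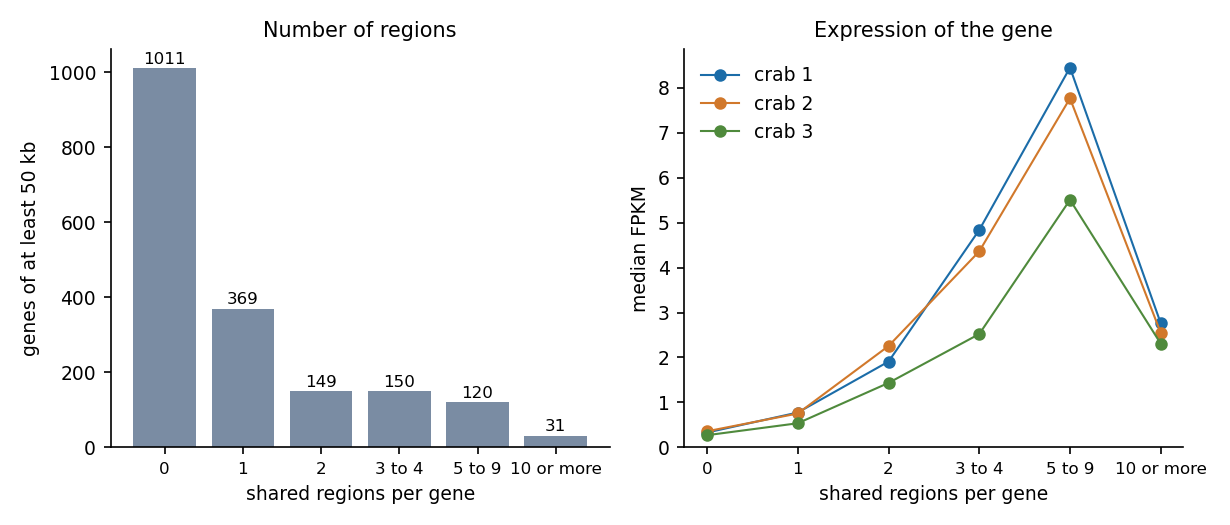
Number of genes of at least 50 kb by their number of shared regions (left) and median FPKM of the genes in each class for each crab (right). The medians are highest with 5 to 9 regions in every crab and lower in the 31 genes with 10 or more.

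The difference in expression was larger among the EVM gene models than among the added loci in each crab. It was 1.35 ± 0.19 on the log2(FPKM + 1) scale in EVM models and 0.25 ± 0.10 in added loci, and the contrast between both was 1.10 ± 0.16 (SD, n = 3, 3 of 3 crabs, exact sign-flip permutation test, p = 0.25). Of the 31 genes with 10 or more regions, 13 were added loci. Genes of 20 to 50 kb showed a difference of 1.17 ± 0.10 between those with a shared region and those without one, and the contrast with the long genes was -0.13 ± 0.15 and not of one direction in the crabs (n = 3, p = 0.5 by the same exact test).

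An open promoter was more often seen in hosts. A promoter peak was called for 51.0%, 46.8% and 53.8% of hosts in crabs 1, 2 and 3 and for 25.8%, 25.02% and 30.7% of the other long genes, a difference of 23.4 ± 1.75 percentage points (SD, n = 3, 3 of 3 crabs, exact sign-flip permutation test, p = 0.25). In all 3 libraries, 338 hosts (41.3%) and 203 of the others (20.1%) had one, against 23.0% of all genes. Where every library had a promoter peak, the median of mean FPKM was 5.61 in hosts and 2.33 in the other genes. With a promoter peak in 2 libraries it was 2.76 and 1.08, and with a peak in 1 library 0.926 and 0.753. In the last class, of 76 hosts and 97 other genes, the groups were not of one order in the crabs, with medians of 0.85, 0.628 and 0.685 FPKM in hosts and 0.488, 0.703 and 0.613 FPKM in the others. Without a promoter peak in any library, it was 0.5 in 329 hosts and 0.101 in 652 other genes, and the difference on the log2(FPKM + 1) scale was 0.47.

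Some hosts with many regions had no read at all. The added locus CM024114.1:1857081-2146924 held 20 regions with mean fold enrichments from 2.44 to 10.2, and 0 reads were assigned to it in each library. A count of 0 allows up to 3 reads. The others with most regions and no read were the added loci CM024145.1:13321688-13662323 with 10 regions, CM024130.1:11340700-11738150 with 9 and CM024146.1:22011171-22123954 with 7, and evm.TU.CM024137.1.585 with 7. For the loci of 10 and 9 regions the limit in crab 3 was 1.41 and 1.77 FPKM. Of these 5 genes, 4 had a promoter peak in all 3 libraries, the exception being the locus of 9 regions. The strongest of these promoters was that of the locus of 10 regions, with fold enrichments of 12.1, 7.89 and 12.8.

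Of the candidate receptors looked up from the study, 4 are encoded by long genes. Its candidates rhodopsin-like and sky were not among those looked up. The gene of moody (evm.TU.CM024100.1.415, at CM024100.1:16787866-16867427), a G protein-coupled receptor known from the blood-brain barrier of Drosophila, was expressed at 23.6, 14.7 and 11.7 FPKM and held 4 regions. These lay 5.10, 10.9, 12.1 and 33.5 kb downstream of the TSS, and the strongest, CM024100.1:16856099-16856973, had fold enrichments of 6.63, 4.77 and 8.90. The gene of gpr161 (evm.TU.CM024164.1.176), an orphan receptor of primary cilia in vertebrates, held 1 region 22.9 kb from the TSS, CM024164.1:4994333-4994649, with fold enrichments of 4.46, 5.41 and 9.97 and expression of 1.39, 1.51 and 0.74 FPKM.

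The gene of HTR4 (evm.TU.CM024104.1.157), named for a serotonin receptor, had 3, 0 and 1 reads. It held 1 region 51.0 kb from the TSS, with fold enrichments of 3.85, 3.83 and 7.30. In the study HTR4 was a candidate that was not retained as a G protein-coupled receptor after structure prediction. The gene of GRM7 (evm.TU.CM024146.1.116), a metabotropic glutamate receptor, held no shared region and had 5, 11 and 4 reads. A promoter peak was called only for moody among these 4 genes, in all 3 libraries. In both gpr161 and HTR4 the single region was strongest in crab 3.

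The study's lists of genes changed between adjacent molting stages in both assays held 94 hosts (11.5%) and 48 of the other long genes (4.75%), against 3.15% of all genes and 7.76% of all long genes. These lists required a changed peak assigned to the gene by promoter overlap or, at any distance, by its nearest TSS, and were made partly from these libraries, so they are not independent of the regions. Of the long genes listed as down-regulated in Mu_A vs Mu_C (post-molt and inter-molt), 51 of 80 were hosts, and of those listed as up-regulated in Mu_D vs Mu_E (pre-molt and molt), 48 of 66 were. Of all long genes, 44.8% were hosts. The lists up-regulated in Mu_E vs Mu_A (2 hosts, 4 others) and Mu_C vs Mu_D (0 and 1) held fewer hosts than others. The remaining lists with long genes held more hosts. Among all long genes, hosts and others numbered 336 and 630 below 1 mean FPKM. They numbered 286 and 318 from 1 to 10, and 197 and 63 from 10 upwards. At like expression the shares were 3.87% of hosts and 3.17% of other long genes below 1 mean FPKM, 14.3% and 6.29% from 1 to 10, and 20.3% and 12.7% from 10 upwards.

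Between crabs the regions kept much of their order of strength. The Spearman rho of fold enrichment over the 2301 regions was 0.689 for crabs 1 and 2, 0.687 for crabs 1 and 3 and 0.633 for crabs 2 and 3, and it was 0.695, 0.70 and 0.658 over the regions in shorter genes. Crab 3 had the highest value in 1450 regions, and in 859 after each library was centred on its median. A range of at least 2-fold between the highest and lowest crab was seen in 12.5% of the regions, against 10.8% of all shared regions on placed sequences, and in 171 (7.43%) after centring, against 6.69%.

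The widest range was that of CM024140.1:15738537-15739311, 97.9 kb inside evm.TU.CM024140.1.372, with fold enrichments of 10.5, 2.93 and 13.2 from pileups of 68, 12 and 96 fragments. Its host had 0.419, 0.606 and 0.616 FPKM, from 16, 31 and 13 reads. In CM024158.1:23017076-23017495 inside evm.TU.CM024158.1.562 the values were 6.48, 3.83 and 15.3, and the host had 10.8, 6.76 and 8.69 FPKM. Only CM024123.1:23280-23740 in evm.TU.CM024123.1.1, among the 5 widest, was strongest in crab 2, with 5.25, 13.9 and 3.75. In the other 4 crab 3 was highest and crab 2 lowest. Host expression differed between crabs by at least 2 on the log2(FPKM + 1) scale in 38 of 483 hosts with a mean of at least 1 FPKM (7.87%) and in 41 of 381 other long genes (10.8%), against 14.4% of all genes of that level.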

How the data were processed

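The members and lists were chosen with earlier results of these data known. For RNA-seq, the authors aligned reads with HISAT2 (2.0.5 in the submitters' processing notes), counted uniquely mapped reads per gene with featureCounts (1.5.0-p3 there) and deposited FPKM values, scaled by a library size of unstated method. Gene positions and lengths are other values deposited by the authors. FPKM times gene length gave whole reads within 1% for 100% of values, and the totals are the sums of these reads. Genes that overlap, are antisense or have near-identical copies can share reads, since strand use is not stated.

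For ATAC-seq, the authors aligned reads with BWA, removed mitochondrial, poorly mapped and unpaired reads, and ran MACS2 on each library. Duplicates were kept, and no control library is named. The authors deposited for each summit a score, a fold enrichment (a ratio), −log10 p and −log10 q, and the lowest −log10 q was 1.30 in each library. No shift of reads for Tn5 is stated in the sources used here. Pileup and local background at the summit, in fragments, were solved from fold enrichment and p and came out for 99.97% to 99.98% of summits. At the strongest region they could not be solved. The lowest background was 3.94, 3.44 and 3.49 fragments, a relative measure of depth, and intervals for counting error were not computed. The recorded positions are given counted from 1 on the sequence names of the files.

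Peaks were merged at 1 shared base, promoters were 2 kb on either side of the TSS, and the pseudocount was 1. Exact two-sided sign-flip tests used 1 value per crab. Crabs are separate animals with 1 library each. Named genes are the 10 hosts with most regions, the 5 densest with at least 5 regions, the 5 of highest FPKM and the 5 longest. They also include the 5 with most regions among those without a read and the 5 longest genes without a region. Receptors looked up from the study were added where they spanned at least 50 kb. Named regions are the 5 strongest, the 5 weakest and the 5 of widest range. Functions were tested on simulated data. The work used python 3.11.15, numpy 2.4.6, scipy 1.17.1, pandas 2.3.3 and matplotlib 3.10.9.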

Additional observations from a re-analysis of the deposited data

How the results depend on the processing

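With peaks of −log10 q of at least 5, 1391 regions remained in number and the density in long against shorter genes turned to 0.0452 (log2). With a span of at least 30 kb there were 1332 hosts and that ratio was 0.11. With a span of at least 100 kb there were 1205 regions and 312 hosts, the density ratio was -0.15 to shorter genes and 0.11 to intergenic sequence, and that within 20 kb of the TSS to beyond was 0.01. The fold enrichment against promoters turned to 0.0292 (log2) when summits were averaged. The expression difference between hosts and other long genes kept its direction, from 0.47 without a promoter peak to 2.11 with a pseudocount of 0.1, and was 0.99 on plain read totals. The alternatives that leave out genes of 10 or more regions (1.02) or genes overlapping another (1.41), and those for background and for 2 or more regions, were chosen after seeing the data. Without 1 crab at a time there were 2700 to 3377 regions and 910 to 970 hosts, the expression difference was 0.94 to 1.06 and the background difference between hosts of at least 10 and below 1 FPKM was 0.95 to 1.21. No paired analysis was possible because there is 1 group of crabs, and each comparison was already made within each crab. With 3 crabs no p can fall below 0.25, and with 2 crabs none below 0.5. Depth limits the weak peaks, since regions absent from 1 library may lie below its threshold.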

Other observations

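On unplaced sequences, which the rule leaves out, 18 of 22 long genes (81.8%) held shared regions outside promoters, 143 in all. The placed sequence with the most regions, CM024126.1, held 114 in 22 long genes, of which the added locus of 664 kb alone held 74.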
